A study of Mus musculus with 12 samples.

Results

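The guidance ligand and receptor families are the secreted and membrane proteins that steer growing axons and migrating cells. They were described here as 68 genes of the 37991 in the count table: 8 ephrins, 14 Eph receptors, 20 semaphorins, 11 plexins and neuropilins, 7 Slits and Robos, and 8 netrins, Dcc and Unc5 receptors. The members were chosen by a rule on gene symbols, with earlier results of these data known. RNA had been sequenced from GFP-positive neural stem cells (NSCs) sorted from the subventricular zone (SVZ), the stem cell niche along the lateral ventricles of adult mice. Gli1Het mice carry CreERT2 on 1 copy of Gli1 and keep the other copy, and Gli1Null mice carry it on both copies and lack Gli1 in every cell of the body. The mice of all 4 groups were C57BL/6, carried the RCE reporter, and received tamoxifen when 10 weeks old, so that cells with an active Gli1 locus and their descendants kept GFP. The cuprizone groups were then fed chow containing 0.2% cuprizone (a copper-binding toxin to which oligodendrocytes are sensitive) for 3 weeks, and the control groups stayed on normal chow. Each of the 4 groups (Gli1Het cuprizone, Gli1Het control, Gli1Null cuprizone and Gli1Null control) held 3 libraries, each pooled from the SVZ of 2 mice, a female and a male, and p-values measure the spread between these pools. The GFP gate marks cells by the activity of the Gli1 locus at the time of tamoxifen and does not remove their neuronal or glial descendants.

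Several families of cues do most of this work, each with receptors of its own. Ephrins are held on the cell surface, the A class by a lipid anchor and the B class by a transmembrane domain, and bind Eph receptor tyrosine kinases on neighbouring cells, with signals running into both cells. Semaphorins act through plexins, and secreted class 3 semaphorins mostly need a neuropilin beside the plexin. Slits repel cells through Robo receptors, and netrins attract through Dcc and repel through Unc5 receptors. In the adult SVZ these families are known for ordering the stem cell niche and for leading neuroblasts, the migrating daughters of NSCs, along the rostral migratory stream to the olfactory bulb.

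Counts in genes ranged from 13752801 to 32468063 per library, and 65 of the 68 members passed the filter on low counts (Ntn5, Sema3g and Slit3 did not). Levels in CPM are counts scaled to each library's total of counts in genes. Gli1, the deleted gene, had 21.5, 0.837 and 3.84 CPM in Gli1Het cuprizone libraries, against 8.65, 18.3 and 17.8 CPM in Gli1Het control libraries. It had 0.293 to 0.739 CPM in the 6 Gli1Null libraries. The library labelled Gli1Het cuprizone replicate 2 therefore stood close to the Gli1Null libraries for Gli1. Of 14 neuroblast markers, 11 fell and 0 rose in Gli1Het NSCs on cuprizone, and their summed level was 402 to 3741 CPM, against 5593 to 7298 CPM. In Gli1Null NSCs 0 of the 14 passed, with sums of 3783 to 4031 CPM on cuprizone, against 6007 to 6365 CPM on the control diet. Of 14 markers of neural stem cells, 7 were higher in Gli1Het cuprizone NSCs (sums of 9604 to 12574 CPM, against 4791 to 8356 CPM), and 2 were higher in Gli1Null cuprizone NSCs. Microglia markers summed to 164 to 225 CPM in Gli1Het cuprizone libraries, against 74.5 to 96.5 CPM in Gli1Het control libraries, with 7 of 14 higher. In the same comparison 4 of 10 pericyte and smooth muscle markers, 3 of 7 oligodendrocyte precursor markers and 4 of 8 ependymal markers were higher. In it 3 of 10 endothelial, 2 of 10 oligodendrocyte and 2 of 8 mature neuron markers were lower. Over all genes, 18.8% were higher and 15.3% lower for the Gli1Het diets. For the Gli1Null diets 3.37% were higher and 0.250% lower. In bulk RNA, fewer cells of a type and less RNA per cell cannot be told apart, and the part of these cell types in the results on guidance genes was not tested.

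In Gli1Het NSCs, cuprizone moved the guidance families in both directions, and more members fell than rose. Of the 65 tested, 10 (15.4%) were higher and 17 (26.2%) lower on cuprizone at an adjusted p under 0.05 in edgeR's quasi-likelihood test, which was fitted on all 12 libraries and adjusted over 17623 genes. Over all genes 18.8% were called higher and 15.3% lower. The median log2 fold change of the members was -0.30, beside 0.02 over all genes tested. All ephrin-B ligands, the netrin receptors Dcc, Unc5a and Unc5d, and 4 Eph receptors were among the members that fell, and Plxna1, Plxnd1, Nrp1 and 4 semaphorins were among those that rose. Of the 65 members, 12 were called without Gli1Het control replicate 2 (17.5% of all genes in that fit), 16 without Gli1Het control replicate 1 (22.7%) and 25 without the library labelled Gli1Het cuprizone replicate 2 (27.0%), where 21 of the 27 calls were kept. Calls were kept in each of the 12 fits that left out 1 library for 10 members. These were Efna1, Efnb1, Epha3, Epha5, Sema4g, Sema6a, Plxna1, Plxnd1, Dcc and Unc5d. The share of all called genes that kept their calls in this way is not given here. A fit on the 6 Gli1Het libraries alone called 4 of 59 members, Epha3, Efna1, Unc5d and Plxnd1, beside 5.90% of 16294 genes. All 3 libraries of Gli1Het cuprizone lay above all 3 of Gli1Het control for 9 members (21.7% of all genes) and below them for 19 (20.2% of all genes).

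The members' share of the counts in genes was 0.314%, 0.184% and 0.238% in Gli1Het cuprizone libraries, against 0.321%, 0.363% and 0.333% in Gli1Het control libraries. It was 0.332%, 0.338% and 0.335% in Gli1Null cuprizone libraries, against 0.313%, 0.381% and 0.348% in Gli1Null control libraries. The low shares were those of the library labelled Gli1Het cuprizone replicate 2 and of replicate 3. An exact permutation test gave p = 0.1 for the Gli1Het diets and 0.7 for the Gli1Null diets (two-sided, n = 3 each), and 0.1 is the smallest p that 3 against 3 libraries allow. Between Gli1Null cuprizone and Gli1Het cuprizone libraries p was also 0.1, and adjusted over these 3 comparisons the values were 0.15, 0.7 and 0.15.

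**Figure D1:**
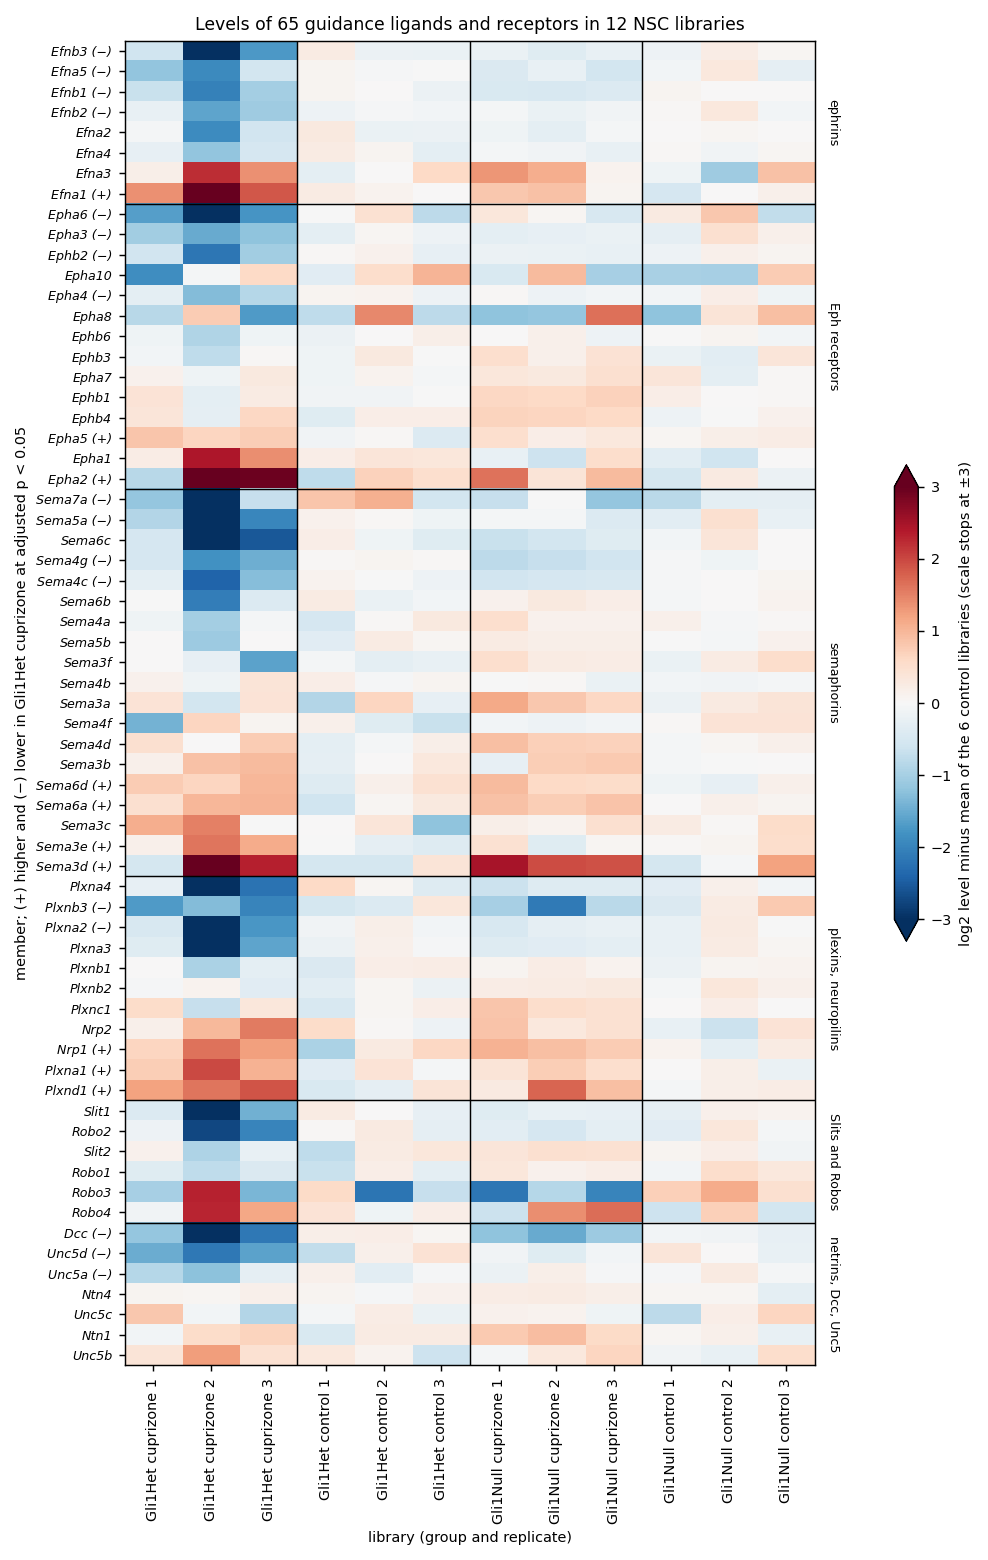
Log2 level of each of the 65 tested members (rows, by class, ordered within a class by the change with diet in Gli1Het NSCs) in each of the 12 libraries (columns), with its mean over the 6 control diet libraries set to 0; blue is lower and red higher. The strongest colours are in the libraries labelled Gli1Het cuprizone replicates 2 and 3, and the Gli1Null cuprizone columns show paler colours, mostly of the same sign.

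Promoters of 6 members are printed to show the start regions of members that moved together, the 3 that fell and the 3 that rose with the smallest adjusted p among those with an entry in the RefSeq promoter table for GRCm38.p6. The table held 58 of the 68 members, 55 of them tested, and each window runs from 250 bases before to 50 bases after a transcript start. Both strands were searched for CAGCTG (an E-box bound by proneural factors), TAATTA (a homeodomain core), TGANTCA (AP-1), TGATGNAA (a site shared by ATF4 and C/EBP factors) and GACCACCCA (the GLI site). None of these motifs contains another, and capitals mark the matches. The windows are Epha3 at chr16:63864126-63864425, minus strand; Efnb1 at chrX:99135811-99136110, plus strand; Sema4g at chr19:44989094-44989393, plus strand; Epha5 at chr5:84417333-84417632, minus strand; Efna1 at chr3:89280902-89281201, minus strand; and Plxnd1 at chr6:115994956-115995255, minus strand.
Epha3: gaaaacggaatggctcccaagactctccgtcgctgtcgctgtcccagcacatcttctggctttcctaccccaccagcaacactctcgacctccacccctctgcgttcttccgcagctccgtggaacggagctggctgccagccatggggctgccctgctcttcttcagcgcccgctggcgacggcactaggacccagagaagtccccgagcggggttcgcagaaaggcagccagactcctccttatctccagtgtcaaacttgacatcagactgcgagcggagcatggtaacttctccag
Efnb1: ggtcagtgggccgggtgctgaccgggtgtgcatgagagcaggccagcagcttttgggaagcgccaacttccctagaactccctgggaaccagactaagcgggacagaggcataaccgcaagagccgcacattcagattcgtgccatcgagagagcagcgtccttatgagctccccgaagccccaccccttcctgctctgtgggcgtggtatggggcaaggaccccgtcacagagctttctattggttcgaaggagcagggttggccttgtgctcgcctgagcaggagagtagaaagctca
Sema4g: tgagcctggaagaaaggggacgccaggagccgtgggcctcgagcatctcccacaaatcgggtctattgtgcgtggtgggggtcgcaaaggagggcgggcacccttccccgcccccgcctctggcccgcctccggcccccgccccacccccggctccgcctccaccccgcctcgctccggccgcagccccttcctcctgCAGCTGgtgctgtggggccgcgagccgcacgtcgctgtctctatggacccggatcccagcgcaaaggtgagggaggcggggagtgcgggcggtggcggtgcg
Epha5: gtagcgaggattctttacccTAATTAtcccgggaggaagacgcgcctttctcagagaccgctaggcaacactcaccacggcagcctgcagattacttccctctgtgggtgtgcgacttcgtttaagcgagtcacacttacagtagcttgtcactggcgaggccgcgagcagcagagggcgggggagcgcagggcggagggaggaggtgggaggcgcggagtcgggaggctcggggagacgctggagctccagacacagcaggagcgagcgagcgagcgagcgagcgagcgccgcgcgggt
Efna1: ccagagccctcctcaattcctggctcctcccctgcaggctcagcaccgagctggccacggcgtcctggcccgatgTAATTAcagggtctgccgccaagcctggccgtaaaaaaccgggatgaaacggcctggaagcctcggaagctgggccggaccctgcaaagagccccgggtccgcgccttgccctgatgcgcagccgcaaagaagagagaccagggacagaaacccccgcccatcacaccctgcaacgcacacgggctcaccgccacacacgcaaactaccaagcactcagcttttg
Plxnd1: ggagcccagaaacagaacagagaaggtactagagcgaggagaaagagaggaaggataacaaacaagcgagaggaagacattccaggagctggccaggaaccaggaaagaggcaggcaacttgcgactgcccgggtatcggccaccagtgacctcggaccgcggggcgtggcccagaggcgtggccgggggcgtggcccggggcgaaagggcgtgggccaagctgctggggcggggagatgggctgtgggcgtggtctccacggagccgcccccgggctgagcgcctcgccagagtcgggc

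Of the promoters of members that fell, 4 of 14 held CAGCTG (Epha6, Plxnb3, Sema4g and Sema7a), as did 0 of 8 promoters of members that rose, 5 of 33 of the members that did not pass, and 16.2% of 27025 promoters over all genes. TAATTA was in 2 of the 8 promoters of members that rose, Epha5 and Efna1, in 0 of the 14 of members that fell, and in 5.40% of all promoters. TGANTCA was found in the promoter of Sema4c alone among the members (7.91% of all promoters). TGATGNAA (4.07% of all) and GACCACCCA (0.24% of all) were in none of the members' windows. The median GC content was 66.0% in the 14 promoters of members that fell, 59.2% in the 8 of members that rose, 66.3% in the 33 of members that did not pass and 52.7% over all promoters. For members the window nearest to the annotated gene start was used, and for all promoters the window of lowest coordinate per gene. The shares and GC contents are thus not strictly alike. A match is a stretch of letters and not a measured binding site.

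Per kilobase of exon, the ligand Efnb1 was the highest of the 68 members over the 6 control libraries, at 50.6 CPM per kb. The plexins Plxnb2 (48.5) and Plxnb1 (31.5), which are receptors of class 4 semaphorins, came next, followed by Efnb2 (29.0), Slit1 (26.5), Plxna3 (24.9), Sema6c (24.1) and Efnb3 (22.3), all in CPM per kb. At the low end, Ntn5 had 1 count in all 12 libraries together.

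Among the 8 ephrins, Efna1 rose and Efnb1, Efnb3, Efna5 and Efnb2 fell in Gli1Het NSCs on cuprizone. Efna1 (ENSMUSG00000027954, chr3:89271733-89281142, minus strand), a ligand of EphA receptors that is known to be induced by inflammatory signals and hypoxia, had 7.70, 24.8 and 10.8 CPM in Gli1Het cuprizone libraries, against 3.42, 3.11 and 2.92 CPM in Gli1Het control libraries (log2 fold change 2.20 ± 0.41 SE, adjusted p = 0.00346). The highest value came from the library labelled Gli1Het cuprizone replicate 2, and the groups did not overlap. Efna1 stood at 4.88, 5.34 and 2.93 CPM in Gli1Null cuprizone libraries, against 1.97, 2.89 and 3.15 CPM in Gli1Null control libraries, which overlapped (log2 fold change 0.74 ± 0.40 SE, adjusted p = 0.351).

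Efnb1 (ENSMUSG00000031217, chrX:99136130-99148991, plus strand), a transmembrane ligand of EphB receptors that sorts cells at tissue borders, had 112, 43.5 and 87.1 CPM in Gli1Het cuprizone libraries, against 185, 176 and 157 CPM in Gli1Het control libraries (log2 fold change -1.11 ± 0.25 SE, adjusted p = 0.00821). All 3 cuprizone values were below all 3 control values. Efnb1 stood at 121, 124 and 127 CPM in Gli1Null cuprizone libraries, against 183, 174 and 174 CPM in Gli1Null control libraries, again without overlap, with a change that did not pass (log2 fold change -0.49 ± 0.25 SE, adjusted p = 0.325). Efnb3, the ligand that forms the midline barrier to corticospinal axons, had 47.0, 8.53 and 21.4 CPM in Gli1Het cuprizone libraries, against 83.3, 63.1 and 62.7 CPM in Gli1Het control libraries (log2 fold change -1.46 ± 0.43 SE, adjusted p = 0.0234). Efnb2, a ligand of EphB4 and EphA4 with a part in vessels and in the SVZ niche, had 174, 67.7 and 95.7 CPM in Gli1Het cuprizone libraries, against 177, 193 and 191 CPM in Gli1Het control libraries (log2 fold change -0.75 ± 0.26 SE, adjusted p = 0.0451), with replicate 1 just under the lowest control value. Efna5, a topographic cue for retinal axons, was low throughout, with 0.664, 0.368 and 1.07 CPM in Gli1Het cuprizone libraries, against 1.67, 1.55 and 1.59 CPM in Gli1Het control libraries (log2 fold change -1.25 ± 0.39 SE, adjusted p = 0.0306). The lowest library of Efnb1, Efnb2, Efnb3 and Efna5 was in each case the library labelled Gli1Het cuprizone replicate 2. In Gli1Null NSCs, Efnb3 had 58.7, 54.0 and 58.8 CPM on cuprizone, against 62.6, 82.0 and 72.3 CPM on the control diet, and Efnb2 had 182, 169.7 and 177 CPM, against 201, 247 and 185 CPM.

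The calls of Efnb2 and Efna5 were lost without the library labelled Gli1Het cuprizone replicate 2, that of Efna5 also without any of the Gli1Het control libraries, and that of Efnb2 also in 10 other fits that left out 1 library. Of the other ephrins, Efna4 (log2 fold change -0.63 ± 0.24 SE, adjusted p = 0.0593), Efna3 (log2 fold change 1.38 ± 0.61 SE, adjusted p = 0.0988) and Efna2 (log2 fold change -0.66 ± 0.33 SE, adjusted p = 0.142) did not pass.

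Among the 14 Eph receptors, Epha5 and Epha2 rose and Epha3, Ephb2, Epha4 and Epha6 fell in Gli1Het NSCs on cuprizone. Epha3 (ENSMUSG00000052504, chr16:63543534-63864175, minus strand), a receptor of A-class ephrins, had 39.7, 28.8 and 35.5 CPM in Gli1Het cuprizone libraries, against 66.1, 85.0 and 74.0 CPM in Gli1Het control libraries (log2 fold change -1.13 ± 0.18 SE, adjusted p = 0.00190). It had the smallest adjusted p of the 65 members. Epha3 stood at 62.9, 67.7 and 67.9 CPM in Gli1Null cuprizone libraries, against 66.7, 113 and 89.4 CPM in Gli1Null control libraries, with overlapping groups (log2 fold change -0.41 ± 0.18 SE, adjusted p = 0.257).

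Ephb2, the main receptor for B-class ephrins on axons and at synapses, had 39.4, 13.1 and 28.3 CPM in Gli1Het cuprizone libraries, against 59.3, 64.0 and 49.9 CPM in Gli1Het control libraries (log2 fold change -1.12 ± 0.29 SE, adjusted p = 0.0150). Epha4, which binds ephrins of both classes and is the most abundant Eph receptor per kilobase here (15.8 CPM per kb in control libraries), had 104, 52.3 and 70.8 CPM in Gli1Het cuprizone libraries, against 133, 137 and 117 CPM in Gli1Het control libraries (log2 fold change -0.78 ± 0.21 SE, adjusted p = 0.0160). In both genes the 3 cuprizone libraries lay below the 3 control libraries, with the lowest value in the library labelled Gli1Het cuprizone replicate 2. Ephb2 stood at 49.4, 50.1 and 48.3 CPM in Gli1Null cuprizone libraries, against 51.9, 64.1 and 61.1 CPM in Gli1Null control libraries, and Epha4 had 125, 113 and 116 CPM, against 118, 145 and 114 CPM, in the same Gli1Null groups, with overlap for Epha4 alone. Epha6, a receptor enriched in neurons, was near the limit of detection, with 0.398, 0.0335 and 0.356 CPM in Gli1Het cuprizone libraries, against 1.38, 1.97 and 0.793 CPM in Gli1Het control libraries (log2 fold change -2.55 ± 0.72 SE, adjusted p = 0.0206).

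Epha5 (ENSMUSG00000029245, chr5:84054761-84417382, minus strand), a receptor of A-class ephrins in forebrain, had the smallest standard error of the 10 members that rose, with 20.4, 18.0 and 19.1 CPM in Gli1Het cuprizone libraries, against 10.5, 11.7 and 8.69 CPM in Gli1Het control libraries (log2 fold change 0.88 ± 0.16 SE, adjusted p = 0.00304). Epha5 stood at 15.3, 12.9 and 13.7 CPM in Gli1Null cuprizone libraries, against 11.7, 12.8 and 13.0 CPM in Gli1Null control libraries (log2 fold change 0.19 ± 0.16 SE, adjusted p = 0.554). Epha2, a receptor of epithelial cells and the main partner of ephrin-A1, had 0.0664, 13.9 and 1.92 CPM in Gli1Het cuprizone libraries, against 0.0727, 0.336 and 0.289 CPM in Gli1Het control libraries (log2 fold change 4.40 ± 1.21 SE, adjusted p = 0.0185). The groups overlapped, and the rise of Epha2 rested on the library labelled Gli1Het cuprizone replicate 2 and replicate 3. Without the first of these the call was lost, as it was without any of the Gli1Het control libraries. Epha2 stood at 0.688, 0.253 and 0.400 CPM in Gli1Null cuprizone libraries, against 0.0987, 0.227 and 0.146 CPM in Gli1Null control libraries (log2 fold change 1.52 ± 1.25 SE, adjusted p = 0.555). Ephb3, the second most abundant Eph receptor per kilobase (11.9 CPM per kb), had 74.5, 47.0 and 80.4 CPM in Gli1Het cuprizone libraries, against 71.2, 96.6 and 78.4 CPM in Gli1Het control libraries and did not pass (log2 fold change -0.30 ± 0.23 SE, adjusted p = 0.321). The 8 Eph receptors that did not pass had log2 fold changes between -0.88 and 1.44, and Epha1, Epha8 and Epha10 were under 3 CPM in every library.

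Among the 20 semaphorins, Sema6a, Sema3e, Sema6d and Sema3d rose and Sema4g, Sema5a, Sema7a and Sema4c fell in Gli1Het NSCs on cuprizone. Sema6a (ENSMUSG00000019647), a transmembrane ligand of plexin-A2 and plexin-A4, had 69.9, 101 and 102 CPM in Gli1Het cuprizone libraries, against 32.7, 52.3 and 61.6 CPM in Gli1Het control libraries (log2 fold change 0.89 ± 0.20 SE, adjusted p = 0.00895). Sema6a stood at 88.2, 82.3 and 86.5 CPM in Gli1Null cuprizone libraries, against 49.4, 54.9 and 52.3 CPM in Gli1Null control libraries, a change of like size in the other genotype that did not pass (log2 fold change 0.75 ± 0.20 SE, adjusted p = 0.0683). Sema6d, a transmembrane ligand of plexin-A1, had 123, 113 and 142 CPM in Gli1Het cuprizone libraries, against 53.7, 78.8 and 98.3 CPM in Gli1Het control libraries (log2 fold change 0.70 ± 0.20 SE, adjusted p = 0.0218). Sema6d stood at 131, 107 and 99.6 CPM in Gli1Null cuprizone libraries, against 64.1, 59.7 and 77.2 CPM in Gli1Null control libraries (log2 fold change 0.78 ± 0.20 SE, adjusted p = 0.0563). For these transmembrane class 6 ligands the cuprizone libraries lay above the control libraries in both genotypes.

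Sema3e, the secreted ligand of plexin-D1, had 5.71, 15.7 and 11.0 CPM in Gli1Het cuprizone libraries, against 4.94, 4.16 and 3.89 CPM in Gli1Het control libraries (log2 fold change 1.31 ± 0.34 SE, adjusted p = 0.0154). Replicate 1 was the lowest of the cuprizone values, close to the highest control value. Sema3e stood at 6.66, 3.83 and 5.08 CPM in Gli1Null cuprizone libraries, against 5.10, 5.32 and 7.25 CPM in Gli1Null control libraries, with overlapping groups (log2 fold change -0.15 ± 0.34 SE, adjusted p = 0.845). Its Gli1Het call was lost without Gli1Het control replicate 2 and without replicate 3. Sema3d, a secreted class 3 semaphorin, had 0, 49 and 7 counts in Gli1Het cuprizone libraries, against 0, 0 and 2 counts in Gli1Het control libraries (adjusted p = 0.0321). No fold is given for Sema3d with so few counts, and its call was kept in 5 of the 12 fits that left out 1 library. It was lost without the library labelled Gli1Het cuprizone replicate 2, Gli1Het cuprizone replicate 3, any Gli1Het control library, or Gli1Null cuprizone replicate 2 or 3.

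Sema4g (ENSMUSG00000025207, chr19:44989101-45003397, plus strand), a class 4 transmembrane semaphorin that binds plexin-B2, had 9.95, 3.98 and 5.05 CPM in Gli1Het cuprizone libraries, against 14.3, 14.8 and 14.4 CPM in Gli1Het control libraries (log2 fold change -1.21 ± 0.27 SE, adjusted p = 0.00834). The control libraries were close to each other, and the cuprizone libraries did not overlap them. Sema4g stood at 7.73, 8.48 and 8.99 CPM in Gli1Null cuprizone libraries, against 13.3, 12.7 and 13.9 CPM in Gli1Null control libraries (log2 fold change -0.64 ± 0.27 SE, adjusted p = 0.236). Sema5a, a transmembrane semaphorin with thrombospondin repeats, had 9.82, 1.37 and 4.62 CPM in Gli1Het cuprizone libraries, against 19.5, 18.6 and 16.7 CPM in Gli1Het control libraries (log2 fold change -1.83 ± 0.50 SE, adjusted p = 0.0182). Sema5a stood at 16.6, 17.1 and 13.2 CPM in Gli1Null cuprizone libraries, against 14.3, 25.1 and 15.3 CPM in Gli1Null control libraries, with overlapping groups (log2 fold change -0.19 ± 0.47 SE, adjusted p = 0.857). Sema7a, a lipid-anchored semaphorin that signals through integrins and plexin-C1, had 3.78, 0.937 and 5.19 CPM in Gli1Het cuprizone libraries, against 15.1, 17.8 and 5.77 CPM in Gli1Het control libraries (log2 fold change -2.01 ± 0.57 SE, adjusted p = 0.0217). Sema4c, a ligand of plexin-B2, had 55.5, 12.8 and 27.7 CPM in Gli1Het cuprizone libraries, against 71.4, 66.5 and 61.0 CPM in Gli1Het control libraries (log2 fold change -1.07 ± 0.36 SE, adjusted p = 0.0406), and its call was kept in 2 of the 12 fits that left out 1 library.

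The semaphorins of highest level per kilobase were Sema6c and Sema5b, and neither passed. Sema6c, a class 6 transmembrane semaphorin, had 101, 7.13 and 24.6 CPM in Gli1Het cuprizone libraries, against 163, 131 and 111 CPM in Gli1Het control libraries (log2 fold change -1.63 ± 0.64 SE, adjusted p = 0.0674), without overlap. Sema6c stood at 84.9, 95.5 and 106 CPM in Gli1Null cuprizone libraries, against 133, 181 and 141 CPM in Gli1Null control libraries. Sema5b had 131, 60.8 and 129 CPM in Gli1Het cuprizone libraries, against 100.1, 153 and 135 CPM in Gli1Het control libraries (log2 fold change -0.28 ± 0.24 SE, adjusted p = 0.386). In both, the library labelled Gli1Het cuprizone replicate 2 was the lowest of the 3 Gli1Het cuprizone libraries. Sema4d, a ligand of plexin-B1, had 47.2, 33.6 and 56.0 CPM in Gli1Het cuprizone libraries, against 27.0, 32.0 and 38.0 CPM in Gli1Het control libraries (log2 fold change 0.48 ± 0.18 SE, adjusted p = 0.0590) and overlapped. Sema4d stood at 59.3, 53.5 and 51.3 CPM in Gli1Null cuprizone libraries, against 31.5, 34.1 and 36.5 CPM in Gli1Null control libraries without overlap, and it had the smallest adjusted p of any member for the Gli1Null diets (log2 fold change 0.71 ± 0.18 SE, adjusted p = 0.0544). The other 8 tested semaphorins that did not pass had log2 fold changes between -0.61 and 1.16 in Gli1Het NSCs.

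Among the 11 plexins and neuropilins, Plxna1, Plxnd1 and Nrp1 rose and Plxnb3 and Plxna2 fell in Gli1Het NSCs on cuprizone. Plxna1 (ENSMUSG00000030084, chr6:89316314-89362620, minus strand), a receptor for class 3 semaphorins with neuropilins and for Sema6d, had 35.6, 84.9 and 43.4 CPM in Gli1Het cuprizone libraries, against 16.5, 28.0 and 20.3 CPM in Gli1Het control libraries (log2 fold change 1.33 ± 0.29 SE, adjusted p = 0.00771). Nrp1, which binds Sema3a and VEGF-A, had 22.1, 43.6 and 33.0 CPM in Gli1Het cuprizone libraries, against 7.13, 16.7 and 21.6 CPM in Gli1Het control libraries (log2 fold change 1.11 ± 0.34 SE, adjusted p = 0.0291). In both genes the highest value came from the library labelled Gli1Het cuprizone replicate 2. Plxna1 stood at 26.3, 34.7 and 28.9 CPM in Gli1Null cuprizone libraries, against 21.0, 23.4 and 18.1 CPM in Gli1Null control libraries (log2 fold change 0.55 ± 0.29 SE, adjusted p = 0.345), and Nrp1 had 27.5, 25.5 and 22.6 CPM, against 14.6, 11.3 and 16.4 CPM, in the same Gli1Null groups (log2 fold change 0.87 ± 0.34 SE, adjusted p = 0.201). The Gli1Het call of Nrp1 was lost without the library labelled Gli1Het cuprizone replicate 2, without Gli1Het cuprizone replicate 3 and without Gli1Het control replicate 1 or 2.

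Plxnd1 (ENSMUSG00000030123, chr6:115954811-115995005, minus strand), the receptor of Sema3e, had 4.58, 6.12 and 7.33 CPM in Gli1Het cuprizone libraries, against 1.38, 1.60 and 2.56 CPM in Gli1Het control libraries (log2 fold change 1.68 ± 0.38 SE, adjusted p = 0.00866). Plxnd1 stood at 2.25, 6.53 and 3.54 CPM in Gli1Null cuprizone libraries, against 1.81, 2.17 and 2.23 CPM in Gli1Null control libraries (log2 fold change 1.00 ± 0.37 SE, adjusted p = 0.172). Ligand and receptor of this pair were thus both higher in Gli1Het cuprizone NSCs. Plxna2, a receptor of Sema6a, had 113, 19.0 and 46.0 CPM in Gli1Het cuprizone libraries, against 143, 174 and 147 CPM in Gli1Het control libraries (log2 fold change -1.40 ± 0.45 SE, adjusted p = 0.0329). Receptor and ligand of that pair moved in opposite directions. Plxnb3, a receptor of Sema5a known from oligodendrocytes, had 1.06, 1.44 and 0.854 CPM in Gli1Het cuprizone libraries, against 2.47, 2.69 and 4.62 CPM in Gli1Het control libraries (log2 fold change -1.53 ± 0.44 SE, adjusted p = 0.0228). Plxnb3 stood at 1.69, 0.758 and 1.94 CPM in Gli1Null cuprizone libraries, against 2.63, 4.25 and 6.19 CPM in Gli1Null control libraries and a fitted change of the same size that did not pass (log2 fold change -1.53 ± 0.43 SE, adjusted p = 0.0751). The summed level of 10 oligodendrocyte markers was 178 to 363 CPM in Gli1Het cuprizone, against 322 to 1161 CPM in Gli1Het control libraries, and 269 to 439 CPM in Gli1Null cuprizone, against 468 to 631 CPM in Gli1Null control libraries, and the part of these cells in the change of Plxnb3 was not tested.

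The plexins of highest level, Plxnb2 and Plxnb1, did not pass. Plxnb2 had 368, 409 and 294 CPM in Gli1Het cuprizone libraries, against 297, 387 and 336 CPM in Gli1Het control libraries (log2 fold change 0.06 ± 0.15 SE, adjusted p = 0.784), and Plxnb1 had 306, 158 and 244 CPM, against 219.9, 345 and 355 CPM, in these groups (log2 fold change -0.39 ± 0.23 SE, adjusted p = 0.202). Plxna3 and Plxna4, receptors of class 3 semaphorins, spread widely among the Gli1Het cuprizone libraries. Plxna3 had 153, 20.9 and 65.5 CPM in Gli1Het cuprizone libraries, against 171, 216 and 192 CPM in Gli1Het control libraries (log2 fold change -1.29 ± 0.48 SE, adjusted p = 0.0564). Plxna4 had 149, 10.5 and 37.6 CPM in Gli1Het cuprizone libraries, against 264, 183 and 135 CPM in Gli1Het control libraries (log2 fold change -1.58 ± 0.66 SE, adjusted p = 0.0805). In both, Gli1Het cuprizone replicate 1 was near the control values, and the low mean rested on the other 2 libraries. Plxnc1 (log2 fold change 0.20 ± 0.27 SE, adjusted p = 0.592) and Nrp2 (log2 fold change 0.85 ± 0.39 SE, adjusted p = 0.108) did not pass either.

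None of the 6 tested Slits and Robos passed in any comparison. Slit1, a repellent that SVZ neuroblasts themselves secrete, had 119, 10.1 and 57.3 CPM in Gli1Het cuprizone libraries, against 184, 158 and 134 CPM in Gli1Het control libraries (log2 fold change -1.37 ± 0.57 SE, adjusted p = 0.0782). Robo2, a receptor of Slits on neuroblasts and axons, had 119, 19.9 and 33.6 CPM in Gli1Het cuprizone libraries, against 134, 159.9 and 111 CPM in Gli1Het control libraries (log2 fold change -1.25 ± 0.49 SE, adjusted p = 0.0673). For both, the library labelled Gli1Het cuprizone replicate 2 was far below the control libraries and replicate 1 was near them, so that Slit1 was apart from control by a small margin and Robo2 overlapped it. Slit1 stood at 117, 133 and 128 CPM in Gli1Null cuprizone libraries, against 128, 171 and 167 CPM in Gli1Null control libraries, and Robo2 had 101, 90.9 and 103 CPM, against 103, 166 and 124 CPM, in the same Gli1Null groups. Without Gli1Het cuprizone replicate 1, the edgeR fit called both members lower in Gli1Het cuprizone NSCs, beside 46.9% of all genes called in either direction. In that fit Slit1 had a log2 fold change of -2.30 (adjusted p = 0.00405) and Robo2 of -2.38 (adjusted p = 7.41e-05). Without the library labelled Gli1Het cuprizone replicate 2, Slit1 was called lower and Robo2 was not, beside 27.0% of all genes. Without replicate 3 neither was called, beside 21.2% of all genes. Slit2 (log2 fold change -0.31 ± 0.28 SE, adjusted p = 0.412) and Robo1 (log2 fold change -0.30 ± 0.22 SE, adjusted p = 0.307) had values that overlapped between the Gli1Het diets, and Robo3 and Robo4 were under 5 CPM in every library.

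Among the netrins and their receptors, Dcc, Unc5d and Unc5a fell in Gli1Het NSCs on cuprizone, and the 2 tested netrins did not pass. Dcc (ENSMUSG00000060534), the receptor for attraction to netrin-1, had 10.2, 1.17 and 5.12 CPM in Gli1Het cuprizone libraries, against 25.5, 26.3 and 23.8 CPM in Gli1Het control libraries (log2 fold change -2.24 ± 0.51 SE, adjusted p = 0.00884). Dcc stood at 9.42, 7.83 and 10.3 CPM in Gli1Null cuprizone libraries, against 21.3, 20.9 and 18.9 CPM in Gli1Null control libraries, again without overlap (log2 fold change -1.12 ± 0.49 SE, adjusted p = 0.251). The fall in Gli1Het NSCs was kept without the library labelled Gli1Het cuprizone replicate 2. Unc5d (ENSMUSG00000063626, chr8:28646717-29219636, minus strand), a receptor for repulsion by netrins and for Flrt proteins, had 2.26, 1.41 and 2.06 CPM in Gli1Het cuprizone libraries, against 3.78, 7.22 and 8.84 CPM in Gli1Het control libraries (log2 fold change -1.82 ± 0.32 SE, adjusted p = 0.00276). Unc5d stood at 5.69, 4.91 and 5.88 CPM in Gli1Null cuprizone libraries, against 8.13, 6.46 and 5.42 CPM in Gli1Null control libraries, where the groups overlapped (log2 fold change -0.25 ± 0.30 SE, adjusted p = 0.696).

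Unc5a, a netrin receptor with a death domain, had 4.84, 3.68 and 7.18 CPM in Gli1Het cuprizone libraries, against 9.67, 6.97 and 8.62 CPM in Gli1Het control libraries, with overlap (log2 fold change -0.70 ± 0.25 SE, adjusted p = 0.0492), and the call was kept in 1 of the 12 fits that left out 1 library. Ntn4, a netrin of basement membranes that binds laminins, was the most abundant netrin gene per kilobase and nearly level, with 40.0, 39.4 and 41.2 CPM in Gli1Het cuprizone libraries, against 38.7, 36.4 and 41.4 CPM in Gli1Het control libraries (log2 fold change 0.04 ± 0.12 SE, adjusted p = 0.819). Ntn1, the ligand of Dcc, had 22.1, 34.0 and 36.8 CPM in Gli1Het cuprizone libraries, against 16.5, 27.2 and 27.8 CPM in Gli1Het control libraries (log2 fold change 0.37 ± 0.23 SE, adjusted p = 0.229). Ntn1 stood at 37.8, 43.4 and 33.2 CPM in Gli1Null cuprizone libraries, against 23.6, 25.3 and 19.5 CPM in Gli1Null control libraries (log2 fold change 0.77 ± 0.23 SE, adjusted p = 0.0942). Unc5b (log2 fold change 0.80 ± 0.34 SE, adjusted p = 0.0908) and Unc5c (log2 fold change 0.12 ± 0.45 SE, adjusted p = 0.857) did not pass.

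**Figure D2:**
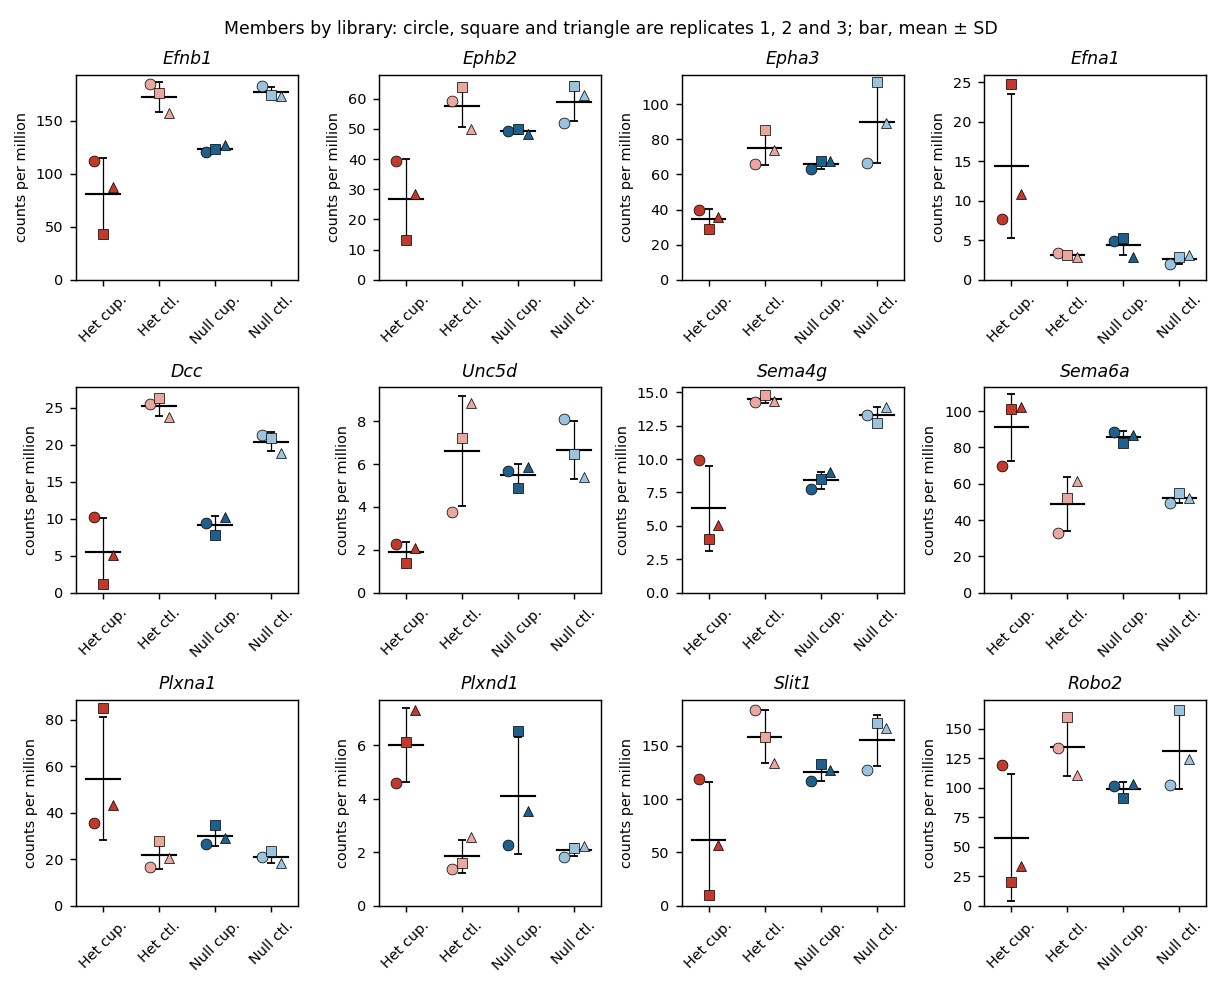
CPM of 12 members in each library of the 4 groups, with the mean and SD of each group of 3; circles, squares and triangles are replicates 1, 2 and 3, and every axis starts at 0. The square of the Gli1Het cuprizone group (replicate 2) is the lowest point of its panel for Efnb1, Ephb2, Epha3, Dcc, Unc5d, Sema4g, Slit1 and Robo2 and the highest for Efna1 and Plxna1.

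The 3 Gli1Het cuprizone libraries were unequal in the guidance families as in the rest of the genes. Of the 17 members that fell, the library labelled Gli1Het cuprizone replicate 2 was the lowest of the 3 in 16, beside 79.5% of all genes that fell, and replicate 1 was the highest in 13, beside 83.9%. The median log2 level of these 17 members, each measured against its mean in control diet libraries of both genotypes (n = 6), was -0.85, -2.15 and -1.27 in replicates 1, 2 and 3. The neuroblast markers followed the same order, with medians of -0.74, -4.75 and -2.48. So did the oligodendrocyte markers (-0.52, -3.02 and -2.40) and the mature neuron markers (-0.29, -1.54 and -0.90). The remaining marker lists had other orders. In Gli1Null cuprizone libraries the 17 members had medians of -0.30, -0.25 and -0.40 and the neuroblast markers -0.67, -0.74 and -0.59. Levels of the 17 members were not adjusted for neuroblast or other markers, and the part of any of these cell types in the falls was not tested. Of the 10 members that rose, the library labelled Gli1Het cuprizone replicate 2 was the highest in 6, beside 69.5% of all genes that rose. Their medians were 0.70, 1.62 and 1.17 in Gli1Het cuprizone replicates 1, 2 and 3, and 0.85, 0.74 and 0.65 in Gli1Null cuprizone replicates 1, 2 and 3.

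**Figure D3:**
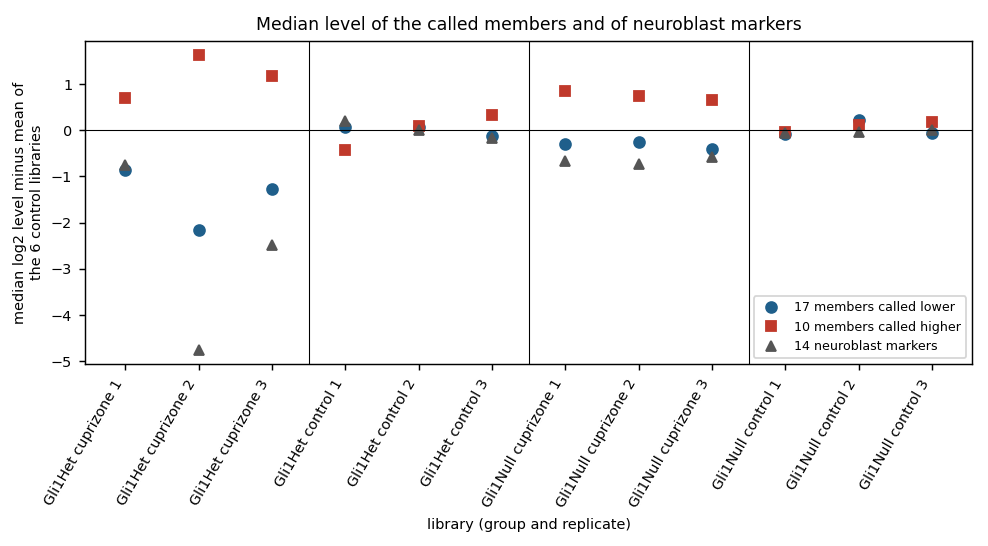
Median log2 level of the 17 members that fell, the 10 that rose and 14 neuroblast markers in each of the 12 libraries; 0 is the mean of the 6 libraries on the control diet. The members were picked by the difference between the 2 Gli1Het groups, so the Gli1Het columns follow from the choice. The Gli1Null columns are not fully independent of it. Their zero line includes the Gli1Het control libraries, and the calls came from a fit on all 12 libraries. The members that fell and rose lie at -0.25 to -0.40 and at 0.65 to 0.85 in the Gli1Null cuprizone libraries.

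Of the 27 members called in Gli1Het NSCs, 26 had a fitted change of the same sign in Gli1Null NSCs (95.1% of all genes called in Gli1Het NSCs), and 26 had a smaller one (95.6% of all genes). The exceptions were Sema3e, whose sign was opposite, and Sema6d, whose change was larger. The 27 members, like the genes they are set beside, were chosen for passing in Gli1Het NSCs, and a smaller change in Gli1Null NSCs follows in part from that choice, so that no difference between the genotypes is read from it. The diet comparisons of the 2 genotypes share no library, but the fit on 12 libraries shared the estimate of the spread between them. None of the 65 members passed in Gli1Null NSCs at an adjusted p under 0.05 in that fit. Over all genes 3.37% were called higher and 0.250% lower. At an unadjusted p under 0.05 there were 14 members, 9 higher and 5 lower, beside 18.1% of all genes, and DESeq2 called 6, beside 7.79% of all genes. The same edgeR fit called 10 members without the library labelled Gli1Het cuprizone replicate 2 (10.5% of all genes), 6 without Gli1Het cuprizone replicate 1 (7.10%) and 4 without Gli1Het control replicate 1 (4.38%). It called 1 without Gli1Het cuprizone replicate 3 (3.06% of all genes) and 1 without Gli1Het control replicate 3 (3.31%). All 3 Gli1Null cuprizone libraries lay above all 3 Gli1Null control libraries for 16 members (19.8% of all genes) and below them for 16 (21.9% of all genes).

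Fitted on the 6 Gli1Null libraries alone, 20 of 61 members passed, 11 higher and 9 lower, beside 14.3% and 10.6% of all genes in that fit. Those higher were Sema6a, Sema4d, Ephb1, Ephb4, Sema6d, Ntn1, Nrp1, Plxnc1, Plxna1, Slit2 and Sema3d, and those lower were Dcc, Efnb1, Sema4c, Robo3, Sema6c, Sema4g, Plxnb3, Plxna3 and Plxna4. Of these 20, 10 had been called in the same direction in Gli1Het NSCs, which is 10 of the 27 called there. The share of all genes called in both fits is not given here, so no likeness of the genotypes is read from this overlap. In that fit Dcc had a log2 fold change of -1.12 ± 0.15 SE (adjusted p = 8.13e-04), Sema6a of 0.74 ± 0.08 SE (adjusted p = 3.06e-04) and Ntn1 of 0.77 ± 0.13 SE (adjusted p = 0.00317). Ephb1, an Eph receptor of neural precursors, had 85.6, 87.4 and 91.2 CPM in Gli1Null cuprizone libraries, against 65.8, 57.9 and 58.5 CPM in Gli1Null control libraries, and in that fit its log2 fold change was 0.56 ± 0.08 SE (adjusted p = 0.00121). Ephb4, the receptor of ephrin-B2, whose exons overlap those of Zan, had 37.8, 38.7 and 36.7 CPM, against 22.2, 24.8 and 27.0 CPM, in these groups. A further fit left out the 4 Gli1Het libraries whose sample number in the deposited column headers is under 10, which leaves 1 Gli1Het library per diet. Its median log2 fold change for the Gli1Null diets was 0.11 over the members, beside -0.02 over all genes.

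**Figure D4:**
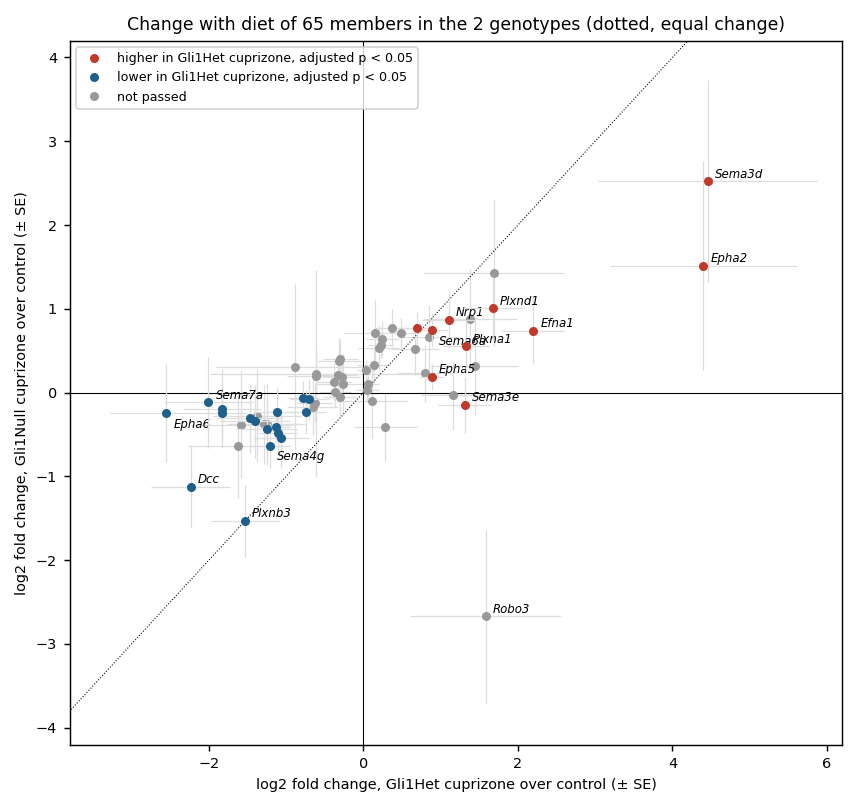
Log2 fold change of each of the 65 members with cuprizone in Gli1Het NSCs (horizontal) and in Gli1Null NSCs (vertical), with standard errors; red and blue mark members called higher and lower in Gli1Het NSCs. Apart from Sema3e, the 27 called members lie in the quadrants of equal sign, and most lie between the horizontal axis and the dotted line of equal change.

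Between the cuprizone groups, Gli1Null NSCs had higher mean levels of many ephrins, Eph receptors and plexins than Gli1Het NSCs, and none of the 65 members passed in edgeR's test. The smallest adjusted p was 0.0561, for Epha3, beside 0.0227% of all genes called higher and 0.0170% called lower. At an unadjusted p under 0.05 there were 25 members, 18 higher and 7 lower, beside 24.9% of all genes in either direction. DESeq2 called 14 members, 9 higher and 5 lower, beside 9.67% of all genes, of which 38.7% were higher. All 3 Gli1Null cuprizone libraries lay above all 3 Gli1Het cuprizone libraries for 19 members (10.8% of all genes) and below them for 3 (16.8% of all genes). The median log2 difference of the members was 0.48, beside -0.01 over all genes.

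Epha3 (log2 fold change 0.99 ± 0.18 SE, adjusted p = 0.0561) and Unc5d (log2 fold change 1.60 ± 0.32 SE, adjusted p = 0.0562) were higher in every Gli1Null cuprizone library than in any Gli1Het cuprizone library, and Efna1 was lower in every one (log2 fold change -1.67 ± 0.39 SE, adjusted p = 0.0681). Without Gli1Het cuprizone replicate 1, the library closest to control, 26 members were called higher and 6 lower in Gli1Null cuprizone NSCs, beside 16.4% and 11.7% of all genes in that fit. The 6 lower were Efna1, Epha1, Epha2, Plxna1, Robo3 and Sema3e. Without the library labelled Gli1Het cuprizone replicate 2 the fit called 0 members, beside 0.206% of all genes. It also called 0 without replicate 3, beside 0.0222% of all genes.

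On the control diet no member passed between Gli1Null and Gli1Het NSCs (0 of 65, beside 0% of all genes). With edgeR 1 member, Robo1, had an unadjusted p under 0.05 (1.44% of all genes), DESeq2 called 0, and the fitted log2 differences of the members ran from -1.04 to 1.35. Gli1Null control libraries lay above Gli1Het control libraries for 1 member (3.46% of all genes) and below them for 4 (4.26% of all genes). The median log2 difference of the members was 0.03.

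The interaction asked whether the change with diet differed between the genotypes. None of the 65 members passed (0% of all genes did, and every member's adjusted p was 0.543 or more), with 10 at an unadjusted p under 0.05 (9.03% of all genes) and 0 called by DESeq2 (0.353% of all genes). The 4 with the smallest p were Unc5d (1.58 ± 0.44 SE, unadjusted p = 0.00374, adjusted p = 0.543), Epha5 (-0.69 ± 0.22 SE, unadjusted p = 0.00924, adjusted p = 0.543), Sema3e (-1.46 ± 0.48 SE, unadjusted p = 0.0105, adjusted p = 0.543) and Robo3 (-4.25 ± 1.42 SE, unadjusted p = 0.0113, adjusted p = 0.543), each as the log2 change in Gli1Null minus that in Gli1Het NSCs. Unc5d, Epha5 and Sema3e were called in Gli1Het NSCs, and their fitted changes in Gli1Null NSCs lay between -0.25 and 0.19. Robo3, a divergent Robo of commissural axons, had 0.398, 4.62 and 0.285 CPM in Gli1Het cuprizone libraries, against 1.31, 0.126 and 0.505 CPM in Gli1Het control libraries, and 0.125, 0.433 and 0.154 CPM in Gli1Null cuprizone libraries, against 1.45, 1.95 and 1.21 CPM in Gli1Null control libraries. A single Gli1Het cuprizone library, replicate 2 by its label, held the high value of Robo3. Without Gli1Het cuprizone replicate 1 the interaction called 17 members, 14 higher and 3 lower, beside 9.46% of all genes.

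Other genes of the same pathways, taken from lists written with earlier results of these data known, moved in both directions as well. Of 28 other guidance cues and co-receptors, 5 rose and 7 fell on cuprizone in Gli1Het NSCs, beside 18.8% and 15.3% of all genes. In Gli1Null NSCs 3 rose and 0 fell, beside 3.37% and 0.250% of all genes. Vegfa, a growth factor that also binds Nrp1, had 284, 359 and 381 CPM in Gli1Het cuprizone libraries, against 72.8, 123 and 176 CPM in Gli1Het control libraries (log2 fold change 1.45 ± 0.27 SE, adjusted p = 0.00321). Nrcam, a cell adhesion molecule of axons, had 318, 485 and 469 CPM in Gli1Het cuprizone libraries, against 153, 178 and 199 CPM in Gli1Het control libraries (log2 fold change 1.25 ± 0.17 SE, adjusted p = 9.40e-04). Chl1, its close relative, had 14.5, 38.7 and 24.5 CPM, against 1.02, 6.09 and 4.58 CPM (log2 fold change 2.70 ± 0.57 SE, adjusted p = 0.00606), and the chemokine receptor Cxcr4 had 20.6, 33.0 and 29.7 CPM, against 14.4, 15.1 and 17.3 CPM (log2 fold change 0.82 ± 0.18 SE, adjusted p = 0.00814). These 4 were named for the smallest adjusted p of the list in this comparison, and all 4 rose on cuprizone without overlap. In Gli1Null cuprizone libraries Vegfa had 418, 322 and 291 CPM, against 105, 117 and 132 CPM in Gli1Null control libraries. In the same Gli1Null groups Nrcam had 306, 270 and 302 CPM, against 147, 178 and 185 CPM. Chl1 had 12.3, 11.3 and 8.62 CPM there, against 3.09, 1.07 and 3.26 CPM. Cxcr4 overlapped there, with 14.2, 18.1 and 18.2 CPM, against 13.3, 15.2 and 13.3 CPM.

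Of 48 intracellular effectors of guidance receptors, 5 were higher and 19 lower in Gli1Het cuprizone NSCs, beside 18.8% and 15.3% of all genes. In Gli1Null cuprizone NSCs 2 were higher and 0 lower, beside 3.37% and 0.250% of all genes. The effectors named below were those of the list with the smallest adjusted p for the Gli1Het diets. Limk1, the kinase that inactivates cofilin, had 11.4, 6.59 and 16.2 CPM in Gli1Het cuprizone libraries, against 28.6, 30.9 and 25.5 CPM in Gli1Het control libraries (log2 fold change -1.33 ± 0.27 SE, adjusted p = 0.00481). Pak3, a kinase downstream of Rac and Cdc42, had 151, 21.4 and 77.8 CPM in Gli1Het cuprizone libraries, against 327, 289 and 263 CPM in Gli1Het control libraries (log2 fold change -1.83 ± 0.47 SE, adjusted p = 0.0139). Dpysl2, which encodes CRMP2 and carries the semaphorin 3A signal to microtubules, had 378, 198 and 222 CPM, against 521, 427 and 415 CPM (log2 fold change -0.78 ± 0.21 SE, adjusted p = 0.0157). Farp2, a Rac activator bound to plexin-A1, rose instead, with 18.0, 16.2 and 21.8 CPM in Gli1Het cuprizone libraries, against 10.0, 8.77 and 10.2 CPM in Gli1Het control libraries (log2 fold change 0.94 ± 0.17 SE, adjusted p = 0.00273). As for many of the receptors, the library labelled Gli1Het cuprizone replicate 2 was the lowest for Limk1, Pak3 and Dpysl2. Limk1 had 29.3, 24.6 and 28.7 CPM in Gli1Null cuprizone libraries, against 30.5, 32.3 and 40.7 CPM in Gli1Null control libraries. In these Gli1Null groups Pak3 had 169.9, 179 and 185 CPM, against 268, 284 and 269 CPM, and neither gene passed there. Dpysl2 had 352, 338 and 376 CPM there, against 472, 474 and 468 CPM. Farp2 had 16.8, 18.7 and 18.0 CPM there, against 9.78, 12.9 and 11.3 CPM. The Gli1Null groups overlapped for none of these effectors.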

How the data were processed

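RNA from 12 libraries (4 groups of 3) had been made with the SMART-Seq V4 and Nextera XT kits. Per the submitters' processing notes and the study's methods, reads were checked with FastQC 0.11.5, aligned to mm10 with TopHat2 2.1.1 and counted per gene with HTSeq 0.11.1; neither the strand setting nor the Ensembl release was given in the sources used here. The deposited count sheet held whole-number counts with the gene ID in each cell, and each count was taken by that ID, since in 33998 lines the first column named another gene. The second deposited sheet held signal values that the authors made by dividing each count by 1 DESeq2 1.12 size factor per library; whole reads were recovered from 100% of its values within 0.01 and equalled the counts. It gave the gene symbols. Reads outside genes (54.5% to 58.4% per library) were left out, and 0 columns of per-sample values were unused.

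Genes passing edgeR 4.0.16's filter (minimum count 10) were fitted with TMM scaling and the quasi-likelihood test (R 4.3.3) on all 12 libraries in 4 groups, with Benjamini-Hochberg adjustment over 17623 genes; an adjusted p under 0.05 was called. CPM used each library's total of counts in genes, without the TMM factor. Log2 levels used the TMM-scaled totals and a prior count of 2. The fit was tested on simulated data. Alternatives were DESeq2 1.42.0, limma 3.58.1 with library weights, other scaling, filters, terms and left-out libraries, and 1 was added after seeing the data. Exon lengths and coordinates came from GENCODE M21 on mm10, in which all 68 member IDs were found. Exons of 17 members overlap another gene, 14 of them on the opposite strand, and such reads cannot be told apart without strand; the coding partners are Zyx (Epha1), Zan (Ephb4), Sec1 (Ntn5) and Hk3 (Unc5a). The members and gene lists were chosen with earlier results of these data known. Values per library are given for up to 4 called members per class and comparison. These had the smallest adjusted p and a mean of at least 1 CPM. They are also given for the 2 of highest level per kilobase per class and the 4 of smallest p in the interaction. Epha2, Epha6, Sema3d, Sema4c, Sema4d, Sema6d, Sema7a, Plxna2, Plxna3, Plxna4, Ephb1 and Ephb4 were added after their values were seen. So were the Gli1Null values of the named effectors, cues and co-receptors.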

Additional observations from a re-analysis of the deposited data

How the results depend on the processing

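The share of all genes called in the same fit stands in parentheses after each count of members. For the diets in Gli1Het NSCs, 27 members were called (18.8% of all genes higher and 15.3% lower). The number was 27 with DESeq2 size factors in edgeR (34.4%), 29 without the filter (19.8%), 31 with the DESeq2 test (39.6%), 35 with a term for sample numbers under 10 (39.6%), 44 with limma and library quality weights (56.8%), and 4 in the fit on the 6 Gli1Het libraries (5.90%). Leaving out 1 library gave 12 (17.5%, without Gli1Het control replicate 2) to 39 (46.9%, without Gli1Het cuprizone replicate 1). With the replicate number as a block (replicate block) the count was 24 (29.6%). Same-numbered libraries correlated by -0.11 to 0.12 in their deviations. These values showed no pairing by number, and 3 libraries per group are too few to settle it. Without the 4 libraries with sample numbers under 10, 18 members were called (14.3%), 10 of them among the 27, and the log2 fold change of Epha2 reversed to -0.15; that fit leaves 1 Gli1Het library per diet, which is assumed to vary like the other groups. For the diets in Gli1Null NSCs, 0 members were called, against 1 without the filter (2.34%), 6 with DESeq2 (7.79%), 6 with the term for sample numbers (6.38%), 19 with limma weights (26.3%), 20 in the fit on the 6 Gli1Null libraries (25.0%), 18 without the 4 libraries (22.3%), and 0 to 10 on leaving out 1 library, 10 without the library labelled Gli1Het cuprizone replicate 2 (10.5%). Between the cuprizone groups, 0 were called, against 3 without the filter (1.70%), 14 with DESeq2 (9.67%), 35 with limma weights (37.9%), and 0 to 32 on leaving out 1 library, 32 without Gli1Het cuprizone replicate 1 (28.1%). For the interaction, 0 were called, against 23 with limma weights (15.5%) and 0 to 17 on leaving out 1 library, 17 without Gli1Het cuprizone replicate 1 (9.46%). Between the control groups 0 were called under every alternative run. The replicate block called 0 for the Gli1Null diets (2.27%), between the cuprizone groups (0.0057%), between the control groups (0%) and for the interaction (0%). The cause of these shifts was not tested. Depth limits Sema3d, Epha2, Epha6, Epha8 and Epha10, whose counts were near 0 in several libraries.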

Other observations

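Several members of a family lie on the same chromosome and strand, and such members did not always go the same way. On mouse chromosome 3 of mm10, the ephrin-A genes Efna1 (ENSMUSG00000027954, chr3:89271733-89281142, minus strand), Efna3 (ENSMUSG00000028039, chr3:89313899-89322965, minus strand) and Efna4 (ENSMUSG00000028040, chr3:89333390-89338028, minus strand) stand in a row on the minus strand. Efna3 had 1.06, 4.59 and 2.49 CPM in Gli1Het cuprizone libraries, against 0.727, 0.924 and 1.44 CPM in Gli1Het control libraries, with a fitted change upwards that did not pass (log2 fold change 1.38 ± 0.61 SE, adjusted p = 0.0988). Efna4 had 9.09, 4.65 and 7.47 CPM in Gli1Het cuprizone libraries, against 12.4, 11.2 and 8.69 CPM in Gli1Het control libraries, with a fitted change downwards that did not pass either (log2 fold change -0.63 ± 0.24 SE, adjusted p = 0.0593). Efna1, at one end of the row, was called higher in the same comparison, as reported above. The highest value of Efna1 and Efna3 and the lowest of Efna4 among the 3 Gli1Het cuprizone libraries were all in the library labelled Gli1Het cuprizone replicate 2.

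On chromosome 5, the class 3 semaphorins Sema3d (ENSMUSG00000040254, chr5:12383385-12588948, plus strand), Sema3a (ENSMUSG00000028883, chr5:13125414-13602565, plus strand), Sema3e (ENSMUSG00000063531, chr5:14025276-14256689, plus strand) and Sema3c (ENSMUSG00000028780, chr5:17574281-17730268, plus strand) lie in order on the plus strand. Sema3c, a secreted cue that attracts cortical axons, had 9.49, 12.8 and 4.34 CPM in Gli1Het cuprizone libraries, against 4.36, 5.63 and 1.88 CPM in Gli1Het control libraries (log2 fold change 1.16 ± 0.42 SE, adjusted p = 0.0503). Sema3c stood at 4.76, 4.62 and 5.91 CPM in Gli1Null cuprizone libraries, against 5.17, 4.48 and 6.34 CPM in Gli1Null control libraries (log2 fold change -0.03 ± 0.41 SE, adjusted p = 0.976). Sema3a, the repellent that binds Nrp1, had 2.65, 1.34 and 2.63 CPM in Gli1Het cuprizone libraries, against 1.02, 3.11 and 1.66 CPM in Gli1Het control libraries, with overlapping groups (log2 fold change 0.15 ± 0.41 SE, adjusted p = 0.798). Sema3d and Sema3e were called higher in Gli1Het cuprizone NSCs, while Sema3a and Sema3c between and beside them did not pass. These genes were looked at together after their values were seen, and no test of neighbouring genes was run.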
